A study of Mus musculus with 44 samples.

Results

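The 8 genes described here encode secreted C1q-like proteins and cerebellins that organize synapses, together with a receptor for the C1q-like proteins: C1ql1, C1ql2, C1ql3, C1qtnf4, Cbln1, Cbln2, Cbln4 and Adgrb3. They were found by gene symbol among the 27179 genes counted in each library, and all 8 passed the filter on low counts in every comparison. The list was picked with earlier results of these data in view. C1ql2, C1ql3 and C1qtnf4 were chosen from their genotype difference 1 h after training, so that difference is given here as a description. Calls on it are named only to show where settings differed, and they test nothing about these genes. The counts come from dorsal hippocampus of 36 mice, 1 library each. WT mice and mice homozygous for Kdm5bΔARID were compared while naive in the home cage (0 h) and at 1 h or 3 h past a session of contextual fear conditioning. Each of the 6 groups held 6 mice, of which 3 carried the label male and 3 the label female. The mutant allele, carried constitutively, lacks the exons that encode the ARID domain of the histone H3K4 demethylase KDM5B. WT and mutant mice alike were F2 offspring of C57BL/6J mutant males and 129S2/Sv females, so the allele and the parental chromosome 1 around it cannot be told apart.

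Proteins of the C1q family share a globular C1q domain by which they assemble into trimers and larger complexes, and many are released at synapses. C1QL2 and C1QL3 are known as products of dentate granule cells that are released from mossy fiber terminals onto CA3 neurons, C1QL1 comes from the neurons that send climbing fibers to the cerebellum, and ADGRB3 (BAI3) is an adhesion G protein-coupled receptor that binds C1q-like proteins. Cerebellins bridge presynaptic neurexins and postsynaptic receptors such as the delta glutamate receptors. C1QTNF4 is a more distant relative with a pair of C1q domains, and it is made in brain.

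Library totals ran from 40274435 to 107000233 counts, and no 2 libraries were identical. For 2 libraries the sex transcripts went against the label. That of WT 1 h male 1 had 51186 counts of Xist and 0 of the Y-linked genes, and that of mutant 3 h female 2 had 36 and 10239. Their other transcripts stood apart as well. The summed CPM of 12 immediate early genes, which rise soon after training, was 531.7 in the library labelled WT 1 h male 1, where the other WT libraries at 1 h held 733.2 to 1301. It was 1260 in the library labelled mutant 3 h female 2, where the other mutant libraries at 3 h held 441.8 to 708.6. Kdm5b was 79.6 CPM in the first, below the 17 other WT libraries (81.5 to 97.1), and 93.6 CPM in the second, above the 17 other mutant libraries (75.6 to 90.6). In both measures each of the pair lay outside the range of the other libraries under its own label and inside that of the other libraries under its partner's label. Whether these 2 libraries were exchanged for each other was not tested. If they were, the WT values at 1 h and the mutant values at 3 h each include 1 library of the other group. Both stayed under their labels, and the results that leaving them out moved most are given both ways. Gene-level counts of Kdm5b, which include the exons left in the allele, were 0.935-fold those of WT in mutants over 0 h and 3 h (log2 fold change -0.10 ± 0.02 SE, adjusted p = 0.0936, edgeR, n = 12 and 12, or -0.11 ± 0.02 and 0.0513 without the doubtful library). The libraries of the 2 genotypes overlapped in this count, so alone it does not tell single libraries apart by genotype. Of 12 immediate early genes, 12 had a positive log2 fold change at 1 h in both genotypes. In mutants 5 of them rose (Egr1, Egr3, Egr4, Fosb and Nr4a2), and in WT mice 0 passed and 11 had an unadjusted p under 0.05, or 2 and 11 without WT 1 h male 1. The 8 choroid plexus markers were all lower in mutants at 0 h, 1 h and 3 h, with median log2 fold changes of -1.88, -2.10 and -0.63 and 0 calls. Of these 8, 1, 6 and 0 had an unadjusted p under 0.05, and without the doubtful pair the medians at 1 h and 3 h were -2.43 and -1.75, with 8 and 0 under 0.05. Across 0 h and 3 h together the median was -1.39 with 2 under 0.05, or -1.81 with 7 without mutant 3 h female 2. Their summed level ran from 45.7 to 8158 CPM in the WT libraries at 3 h alone. Their part in the genotype differences below was not tested. In bulk tissue, fewer cells of a type and less RNA per cell cannot be told apart.

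Levels between genes were compared per kilobase of exon (TMM-scaled CPM, the share of a library's counts scaled to a fixed total, divided by the GENCODE exon length). C1qtnf4 was highest, at 139.5 ± 16.3 CPM per kb (SD, n = 36 libraries). C1ql3 followed at 49.6 ± 7.45, C1ql2 at 32.5 ± 12.7 and Adgrb3 at 22.8 ± 1.54. C1ql1 stood at 7.56 ± 0.695. The cerebellins were lowest, with 3.29 ± 0.597 for Cbln4, 3.24 ± 0.692 for Cbln2 and 2.63 ± 2.18 for Cbln1, and these neighbours in the order lay within 1 SD of each other. C1ql2 and Adgrb3 were also closer together than the SD of C1ql2. The genes differed in how steady they were: Adgrb3 varied 1.28-fold between the lowest and the highest of the 36 libraries, C1qtnf4 1.54-fold, C1ql3 1.87-fold, C1ql2 3.94-fold and Cbln1 14.6-fold. The longest exact run shared by annotated transcripts of 2 of the genes was 38 bases, between C1ql2 and C1ql3, so none of them shares a long identical stretch with another. In the annotation C1ql3 overlaps Pter, and Adgrb3 overlaps several predicted genes.

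**Figure D1:**
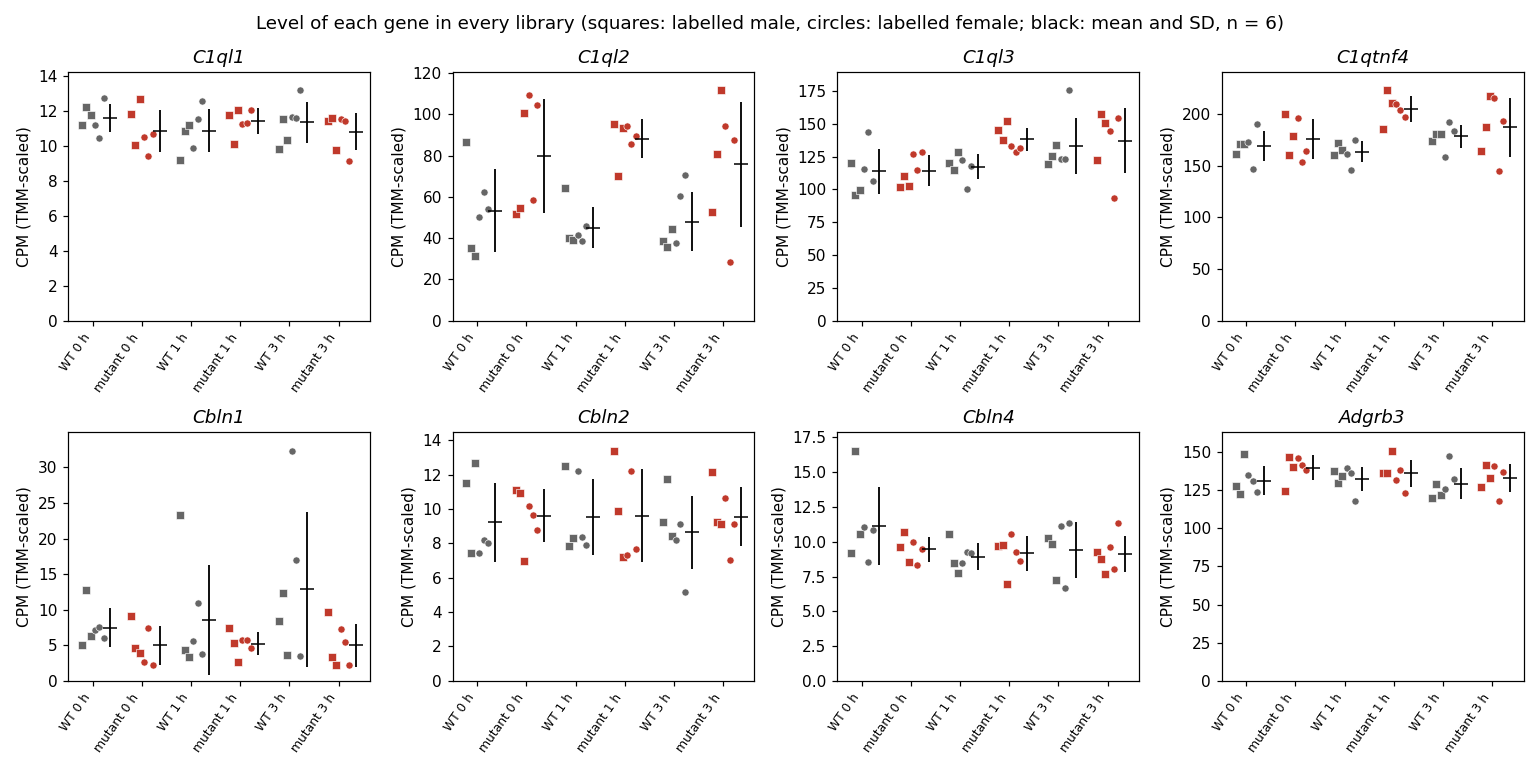
Level of each of the 8 genes in CPM (vertical axis, from 0) in every library, by genotype and time. Points are single libraries, grey for WT and red for mutant, and black marks give the mean and SD of 6. At 1 h every mutant library lies above every WT library for C1ql2, C1ql3 and C1qtnf4, and the library labelled mutant 3 h female 2 lies at 28.3 CPM of C1ql2.

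C1ql2 stood higher in most mutant libraries at the time points not used to choose it, but it did not pass the test there. C1ql2 lies on chromosome 1 (GRCm38 chr1:120340582-120343174, plus strand), 14.2 Mb from Kdm5b. At 0 h the WT libraries ran from 31.1 to 86.7 CPM with a median of 52.0, and the mutant libraries from 51.8 to 109.5 with a median of 79.4. At 3 h the WT libraries ran from 35.7 to 70.7 with a median of 41.7, and the mutant libraries from 28.3 to 111.6 with a median of 84.1. The groups overlapped at both times. At 0 h 3 mutant libraries and at 3 h 4 mutant libraries lay above every WT library of the same time.

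The mean of C1ql2 at 0 h was 79.8 ± 27.6 CPM in mutants and 53.2 ± 20.2 in WT (SD, n = 6 and 6), a log2 fold change of 0.57 ± 0.30 SE (adjusted p = 0.845, edgeR), or 0.86 without WT 0 h male 1 (adjusted p = 0.598). At 3 h it was 75.8 ± 30.3 against 47.95 ± 14.3, a log2 fold change of 0.68 ± 0.32 (adjusted p = 0.802). Over the 24 libraries of both times the fold was 1.54, with a log2 fold change of 0.63 ± 0.22 and a 95% interval from 0.20 to 1.05. C1ql2 was above the WT mean in 11 of 12 mutant libraries, and the adjusted p was 0.223 (unadjusted p = 0.00877). Over the 32 other settings of that comparison the log2 fold change stayed between 0.54 and 0.76 and the adjusted p between 0.0921 and 0.351.

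Among all genes, 0 of 17336 passed between genotypes at 0 h (0%, with 1066 at an unadjusted p under 0.05 and 23 by DESeq2), 2 of 17394 at 3 h (0.0115%) and 22 of 17926 over both times (0.123%). None of the 8 genes passed in any of these 3 comparisons in edgeR, and 0 of them passed by DESeq2. At an unadjusted p under 0.05 there were 0 of the 8 at 0 h (6.15% of all genes), 0 at 3 h (6.36%) and 2 over both times, C1ql2 and Cbln1 (12.45%). The median log2 fold change of the 8 over both times was 0.04, beside -0.00 over all genes tested. Over the 36 libraries, C1ql2 and the summed choroid plexus markers had a Pearson r of -0.38 on log2 values, and -0.23 within groups, both descriptions.

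The library labelled mutant 3 h female 2 held the lowest C1ql2 of all 36, and also the lowest C1ql3 (93.7 CPM), C1qtnf4 (145.1 CPM) and Adgrb3 (117.6 CPM). Its summed level of 10 dentate granule cell markers, 748.0 CPM, was the lowest of its group. It is one of the pair whose labels are in doubt. Without it the log2 fold change of C1ql2 at 3 h was 0.89 ± 0.22 (adjusted p = 0.333), and over 0 h and 3 h it was 0.72 ± 0.19 (adjusted p = 0.0921).

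**Figure D2:**
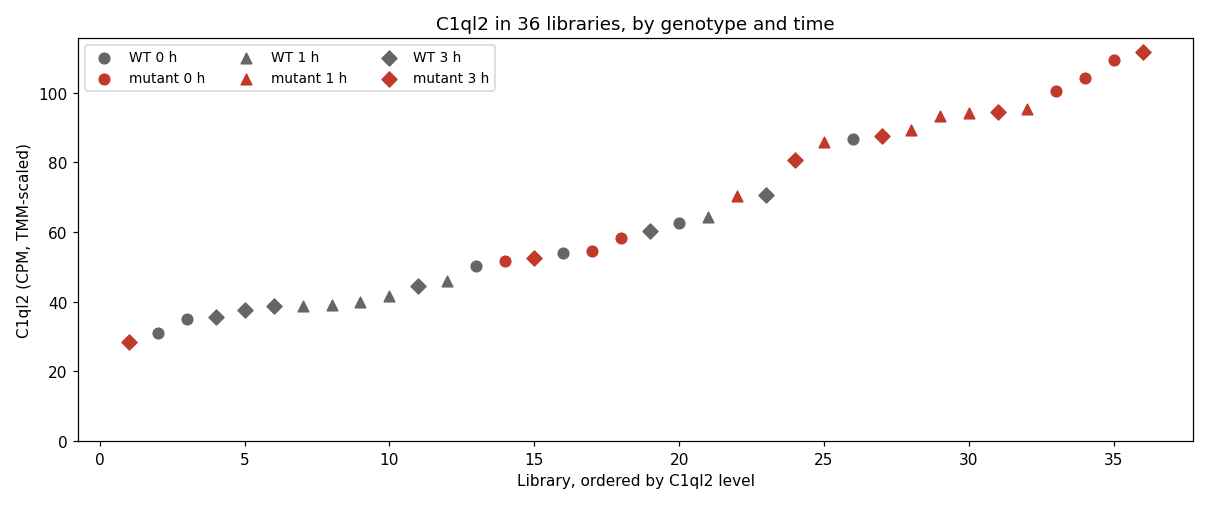
C1ql2 in CPM (vertical axis, from 0) in the 36 libraries ordered by its level (horizontal axis), grey for WT and red for mutant, with circles for 0 h, triangles for 1 h and diamonds for 3 h. The order includes the 1 h libraries that C1ql2 was chosen on, and the lowest library, labelled mutant 3 h female 2, holds 28.3 CPM.

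At 1 h, the comparison that C1ql2 was picked from, the WT libraries held 38.8 to 64.4 CPM with a median of 40.8, and the mutant libraries 70.2 to 95.4 with a median of 91.4. The groups did not overlap, and the log2 fold change was 0.97 ± 0.13 SE. The highest WT library was the one labelled WT 1 h male 1, the other doubtful library, and without it the value was 1.11 ± 0.08. C1ql2, C1ql3 and C1qtnf4 were 3 of the 105 genes (0.608% of 17261) whose WT and mutant libraries did not overlap at 1 h. At 0 h 43 genes (0.248%) and at 3 h 62 genes (0.356%) did not overlap, and 0 of the 8 were among them.

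The 4 nearest tested genes on either side of C1ql2 were examined in the 24 libraries at 0 h and 3 h. None of these 8 neighbours passed, where 0.123% of all genes did. The unadjusted p (edgeR) was under 0.05 for Tmem37 (0.000193), Htr5b (0.000357), Insig2 (0.00045), Dbi (0.0188) and 3110009E18Rik (0.0349). It was not for Steap3, Celrr and Ccdc93, and 12.45% of all genes had one under 0.05. Tmem37, 267 kb away, had a log2 fold change of -1.05 ± 0.24 (adjusted p = 0.0643). Insig2, an endoplasmic reticulum protein of sterol sensing 961 kb away, stood at -0.13 ± 0.03 (adjusted p = 0.0779), and Htr5b, a serotonin receptor gene 1167 kb away, at -0.41 ± 0.10 (adjusted p = 0.0741). Dbi, 219 kb away, stood at 0.18 ± 0.07 (adjusted p = 0.287). Steap3, Ccdc93, Celrr and 3110009E18Rik ran from -0.24 to 0.25, with adjusted p from 0.353 to 0.665. C1ql2 at 0.63 and Tmem37 at -1.05 were thus the 2 with the greatest log2 fold changes in this stretch, in opposite directions.

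The promoter windows of C1ql2 and C1ql3 are shown because these are the pair of mossy fiber genes whose levels the results turn on and because KDM5B acts on a mark of promoters. Each runs from 250 bases before to 50 after the RefSeq start, and 4 of the 8 genes had such a window (C1ql2, C1ql3, Cbln4 and Adgrb3). The sequences are from RefSeq, build GRCm38.p6, written 5′ to 3′ on the gene's strand, with CG dinucleotides in capitals.
C1ql2, chr1:120340332-120340631, plus strand: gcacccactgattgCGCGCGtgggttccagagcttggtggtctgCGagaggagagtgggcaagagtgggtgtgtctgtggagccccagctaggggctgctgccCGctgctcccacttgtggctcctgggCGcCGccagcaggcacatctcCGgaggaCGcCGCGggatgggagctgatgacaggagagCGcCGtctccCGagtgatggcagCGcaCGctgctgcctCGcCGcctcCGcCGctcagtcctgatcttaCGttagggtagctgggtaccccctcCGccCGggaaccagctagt
C1ql3, chr2:13010815-13011114, minus strand: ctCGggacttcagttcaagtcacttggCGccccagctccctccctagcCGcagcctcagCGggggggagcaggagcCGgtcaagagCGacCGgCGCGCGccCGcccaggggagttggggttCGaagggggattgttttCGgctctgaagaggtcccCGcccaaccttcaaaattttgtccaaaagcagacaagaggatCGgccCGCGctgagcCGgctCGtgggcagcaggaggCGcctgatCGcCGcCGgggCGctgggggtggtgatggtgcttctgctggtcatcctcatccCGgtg
C1ql2 held 23 CG and C1ql3 25, where the median of 32851 such windows was 7. Of all windows, 78.5% held fewer CG than C1ql2 and 81.6% fewer than C1ql3. An AP-1 site (TGAGTCA or TGACTCA, each the reverse complement of the other), a full CRE (TGACGTCA) and an EGR site (GCGTGGGCG or its complement CGCCCACGC) were searched on both strands. These letters were in none of the 4 windows, while 5.20%, 1.79% and 0.612% of all windows held them.

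C1ql3, the other C1q-like gene of dentate granule cells (chr2:13001887-13010864, minus strand), did not pass the test between genotypes outside 1 h. At 0 h the WT libraries held 96.1 to 143.7 CPM with a median of 111.2, and the mutant libraries 102.0 to 128.9 with a median of 112.7. Over 0 h and 3 h the log2 fold change was 0.02 ± 0.08, with a 95% interval from -0.14 to 0.18 (adjusted p = 0.941, edgeR, n = 12 and 12). Without mutant 3 h female 2 it was 0.07 ± 0.07 (adjusted p = 0.677). At 3 h alone it was 0.04 ± 0.14 (adjusted p = 0.969), or 0.14 ± 0.10 without that library (adjusted p = 0.735). At 1 h, where it was chosen, the WT libraries held 100.5 to 128.3 CPM (median 119.1) and the mutant libraries 128.9 to 151.9 (median 135.8), a log2 fold change of 0.23 ± 0.05, also without the doubtful library. The gap between the groups there, from 128.3 to 128.9 CPM, was narrow beside the SD of 8.83 in mutants and 9.46 in WT.

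C1ql3 stood somewhat higher 3 h after training in both genotypes, without passing the test. In WT mice the mean went from 113.7 ± 17.4 CPM at 0 h to 133.4 ± 21.3 at 3 h, a log2 fold change of 0.23 ± 0.10 (adjusted p = 0.601), or 0.15 without WT 3 h female 3 (adjusted p = 0.700). In mutants it went from 114.3 ± 11.7 to 137.2 ± 24.8, a log2 fold change of 0.27 ± 0.12 (adjusted p = 0.578). With mutant 3 h female 2 left out, that fold change was 0.37 ± 0.07 (adjusted p = 0.104). The difference between these responses was 0.04 ± 0.17, or 0.15 ± 0.13 without that library. At 1 h the mutant mean was 138.2 ± 8.83 CPM, a log2 fold change of 0.28 ± 0.06 from 0 h, while the WT mean was 117.5 ± 9.46.

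Markers of dentate granule cells moved with C1ql3 across libraries. The summed CPM of the 10 markers and C1ql3 had a Pearson r of 0.81 on log2 values over 36 libraries, and 0.78 for deviations from the 6 group means. All libraries share the scaling, and the coefficient is a description. The marker sum had a median of 734.4 CPM in WT and 789.3 in mutants at 0 h, 796.3 and 836.7 at 1 h, and 844.2 and 916.4 at 3 h, with ranges that overlapped between all groups. With all libraries, none of the 10 markers passed in any comparison. Without mutant 3 h female 2, 1 of the 10 passed between genotypes over 0 h and 3 h (Tdo2, log2 fold change 0.51 ± 0.11, adjusted p = 0.0466, edgeR). In that fit 6 of the 10 were higher in mutants and 4 lower (Lct at -0.20, Dsp at -0.16, Calb1 at -0.02 and Plk5 at -0.01). The median of the 10 was 0.14 where it had been 0.09. At 3 h alone that median went from 0.10 to 0.18. From 0 h to 3 h, the rise set beside that of C1ql3, the median of the 10 was 0.08 in WT with 1 at an unadjusted p under 0.05. In mutants it was 0.12 with 3, or 0.21 with 5 without that library. The library with the highest C1ql3, WT 3 h female 3 at 175.6 CPM, had a marker sum of 1104 CPM, the highest of the 36. For C1ql2 the corresponding r was 0.42, and 0.55 within groups. The part of these markers in the C1ql3 and C1ql2 values was not tested.

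**Figure D3:**
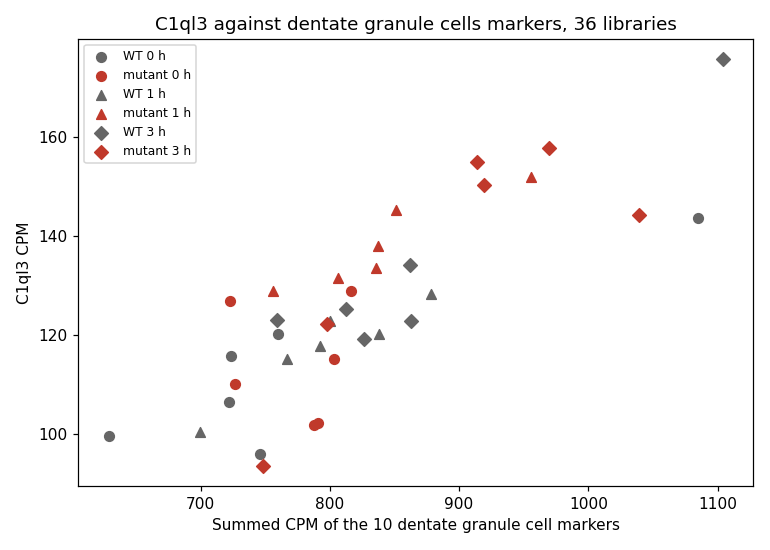
C1ql3 in CPM (vertical axis) against the summed CPM of 10 dentate granule cell markers (horizontal axis), 1 point per library, grey for WT and red for mutant, with circles for 0 h, triangles for 1 h and diamonds for 3 h. The points rise together (r = 0.81 over 36 libraries).

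C1qtnf4 was the most abundant of the 8 genes per length and lies on chromosome 2 (chr2:90882788-90890526, plus strand). At 0 h the WT libraries held 147.0 to 190.8 CPM (median 171.1) and the mutant libraries 153.9 to 200.4 (median 172.1). At 3 h they held 159.1 to 193.0 (median 181.1) and 145.1 to 218.2 (median 190.6). The groups overlapped at both times. Over 0 h and 3 h the log2 fold change was 0.06 ± 0.06 with a 95% interval from -0.06 to 0.18 (adjusted p = 0.726), and without mutant 3 h female 2 it was 0.09 ± 0.05 (adjusted p = 0.467), or 0.04 without mutant 3 h female 1 (adjusted p = 0.865). At 1 h, the comparison used to choose it, WT libraries held 146.3 to 174.8 CPM and mutant libraries 185.9 to 223.3 without overlap, a log2 fold change of 0.33 ± 0.05, or 0.32 ± 0.05 without WT 1 h male 1. From 0 h to 1 h its mean went from 175.9 ± 19.2 to 205.2 ± 12.7 CPM in mutants and from 169.1 ± 14.5 to 163.5 ± 10.1 in WT.

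**Figure D4:**
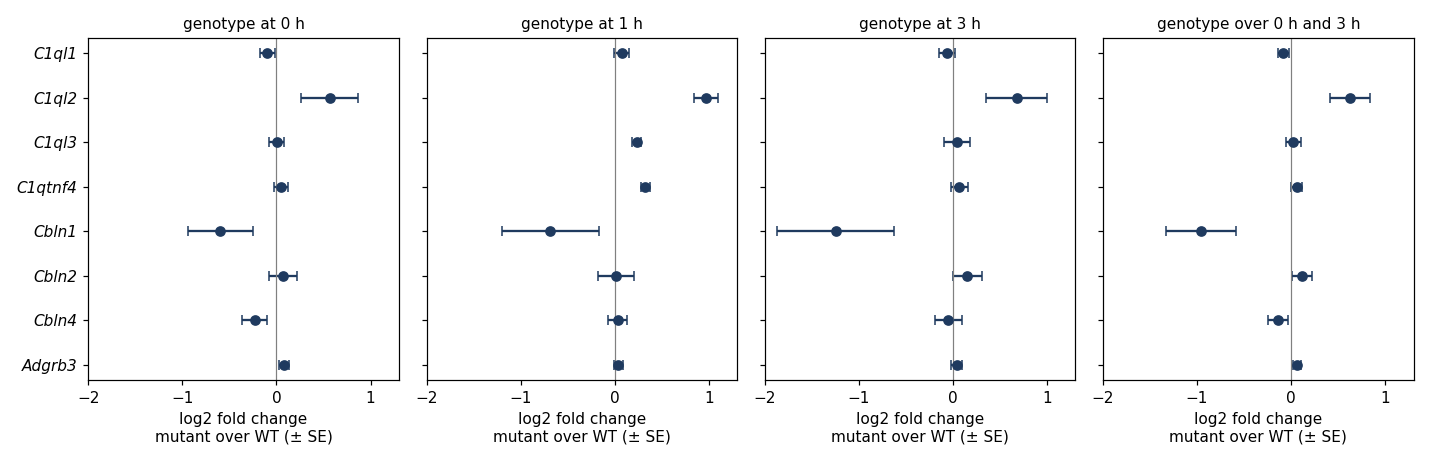
Log2 fold change of mutant over WT (horizontal axis, points with SE bars) for the 8 genes at 0 h, 1 h, 3 h and over 0 h and 3 h together. C1ql2 lies between 0.57 and 0.97 in each panel, C1ql3 and C1qtnf4 lie away from 0 at 1 h, and Cbln1 lies below 0 with wide error bars.

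C1ql1 was present at a far lower level than C1ql3, and it did not pass the test between genotypes. Its group means ran from 10.8 CPM in mutants at 3 h to 11.6 CPM in WT at 0 h, with SDs from 0.731 to 1.21. Over 0 h and 3 h its log2 fold change was -0.08 ± 0.06 (adjusted p = 0.578), and 8 of 12 mutant libraries were below the WT mean.

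Cbln1, a cerebellin known from, but not only from, cerebellar granule cells, had the widest spread of the 8 genes and stood lower in mutants without passing the test. At 0 h the WT libraries held 5.05 to 12.8 CPM (median 6.71) and the mutant libraries 2.22 to 9.13 (median 4.28). At 3 h the WT libraries held 3.51 to 32.4 CPM (median 10.4) and the mutant libraries 2.22 to 9.70 (median 4.39). The ranges overlapped at both times. Over 0 h and 3 h the log2 fold change was -0.95 ± 0.37, a fold of 0.516, and it did not pass (edgeR, adjusted p = 0.284, unadjusted p = 0.0183). Each of the 12 mutant values fell short of the WT average of 10.2 ± 8.07 CPM (SD). That average is lifted by WT 3 h female 1 at 32.4 CPM and WT 3 h female 2 at 17.0 CPM. At 0 h alone, 4 of 6 mutant libraries lay below the WT mean of 7.49 CPM and 2 above it.

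The libraries with the most Cbln1 also held transcripts known from cerebellar granule cells. The summed CPM of Cbln3, Gabra6, Fat2 and Barhl1, a list written after the levels of Cbln1 and Cbln3 had been seen, was 118.2 in WT 3 h female 1, 78.0 in the library labelled WT 1 h male 1, 47.4 in WT 3 h female 2 and 30.9 in WT 1 h female 2. Cbln1 in these 4 libraries was 32.4, 23.3, 17.0 and 10.9 CPM. Barhl1 was near the floor and did not follow the sum, with 0.667, 0.200, 0.0278 and 0.134 CPM in these libraries. In mutant 1 h female 2, where the sum was 2.16 CPM, Barhl1 was 0.293 CPM. The sum thus rests on Cbln3, Gabra6 and Fat2. The sum was at most 20.8 CPM in the other 32 libraries, and its group medians lay between 1.72 and 5.62 CPM. The sum and Cbln1 had a Pearson r of 0.74 on log2 values over 36 libraries, and 0.74 within groups, a description. With the summed markers of thalamus and habenula, Cbln1 had an r of 0.25, and 0.50 within groups. With those of neocortex and entorhinal cortex the r was 0.30, and 0.35 within groups. In WT 0 h male 2 and WT 3 h male 2, Cbln1 was 12.8 and 12.3 CPM with Cbln3 at 2.56 and 0.249 CPM.

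All 4 libraries with the high sum are labelled WT, and the label of 1 of them, WT 1 h male 1, is in doubt. Without those of 0 h and 3 h, the log2 fold change of Cbln1 over both times was -0.48 ± 0.31 (adjusted p = 0.611). At 3 h alone it went from -1.25 ± 0.62 (adjusted p = 0.807) to -0.32 ± 0.58 (adjusted p = 0.999). At 1 h it went from -0.69 ± 0.51 to 0.28 ± 0.24. Leaving out only the library labelled WT 1 h male 1 gave -0.03 ± 0.33 at 1 h. Without the high-sum libraries of 0 h and 3 h, C1ql2 over both times was 0.61 ± 0.23. What part tissue other than hippocampus has in the Cbln1 values was not tested.

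**Figure D5:**
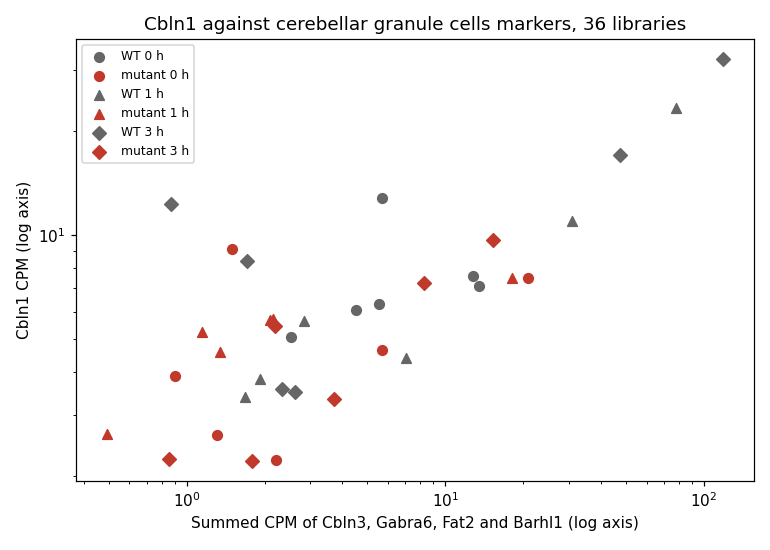
Cbln1 in CPM (vertical axis, logarithmic) against the summed CPM of Cbln3, Gabra6, Fat2 and Barhl1 (horizontal axis, logarithmic), 1 point per library, grey for WT and red for mutant, with circles for 0 h, triangles for 1 h and diamonds for 3 h. The 4 points farthest right, from 30.9 to 118.2 CPM, are labelled WT and hold 10.9 to 32.4 CPM of Cbln1. The one at 78.0 CPM is WT 1 h male 1, whose label is in doubt.

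Cbln2 and Cbln4, the other cerebellins of the list, passed the test between genotypes at no time. Cbln2 group means ran from 8.65 ± 2.12 CPM in WT at 3 h to 9.62 ± 2.68 in mutants at 1 h (SD, n = 6). Its log2 fold change over 0 h and 3 h was 0.11 ± 0.11 (adjusted p = 0.711), or 0.06 without WT 3 h female 3 (adjusted p = 0.841). Across the 36 libraries Cbln2 followed the summed level of 8 markers of neocortex and entorhinal cortex (r = 0.71 on log2 values), whose group medians lay between 219.1 and 268.5 CPM.

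Cbln4 had its highest value, 16.6 CPM, in WT 0 h male 2, where the next WT library at 0 h held 11.1 CPM. At 0 h all 6 mutant libraries were below the WT mean of 11.1 ± 2.83 CPM, at a mean of 9.45 ± 0.883, a log2 fold change of -0.23 ± 0.13 (adjusted p = 0.848). In WT mice Cbln4 stood lower at 1 h than at 0 h, with a log2 fold change of -0.31 ± 0.14 (adjusted p = 0.922, unadjusted p = 0.0391), or -0.35 ± 0.15 without WT 1 h male 1 (adjusted p = 0.709). Over 0 h and 3 h its genotype difference was -0.14 ± 0.10 (adjusted p = 0.596). Without the high library WT 0 h male 2 these 3 values were -0.09 at 0 h, -0.16 in WT at 1 h and -0.06 over 0 h and 3 h.

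Adgrb3, the receptor gene (chr1:25067476-25834772, minus strand, 109 Mb from Kdm5b), was the steadiest of the 8. Its group means ran from 129.3 ± 9.95 CPM in WT at 3 h to 139.6 ± 8.22 in mutants at 0 h. Over 0 h and 3 h the log2 fold change was 0.06 ± 0.04, with a 95% interval from -0.02 to 0.14 (adjusted p = 0.556). Its SD on the log2 scale was 0.10 over the 36 libraries. Adgrb3 and the summed choroid plexus markers had a Pearson r of -0.61 on log2 values over these libraries, and -0.57 within groups, the furthest from 0 of the 8 genes. The part of those markers in the Adgrb3 values was not tested.

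None of the 8 genes passed in the comparisons over time in edgeR, where the 1 h values of C1ql2, C1ql3 and C1qtnf4 are a description. In WT mice 0 of 17319 genes passed at 1 h (0%, with 928 at an unadjusted p under 0.05 and 9 by DESeq2) and 0 of 17438 at 3 h (0%, with 1436 and 51). In mutants 54 of 17282 passed at 1 h (0.312%) and 0 of 17285 at 3 h (0%, with 1481 and 134). DESeq2 also called C1ql3 in mutants at 1 h, among 402 genes called. Between genotypes at 1 h it called C1ql2, C1ql3 and C1qtnf4, among 110 genes. There edgeR called C1ql2 and C1qtnf4 without WT 1 h male 1, among 41 genes. These comparisons use the libraries the 3 genes were chosen on and are no independent test. The response to 3 h did not differ between genotypes for any gene in edgeR (0 of 17926, 0%, with 273 at an unadjusted p under 0.05 and 0 by DESeq2). For C1ql2 that difference was 0.11 ± 0.44, or 0.31 ± 0.38 without mutant 3 h female 2. For Cbln1 it was -0.77 ± 0.73, or -0.24 without WT 3 h female 1 and -0.45 without mutant 0 h male 1. These comparisons share their 0 h libraries.

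For the genotype difference at 1 h, 0 of 17261 genes passed in edgeR (0%, with 1487 at an unadjusted p under 0.05 and 110 by DESeq2). Between 17 female and 17 male libraries, with the doubtful pair left out, 15 of 18283 genes passed (0.0820%) and none of the 8. C1ql2 was 69.7 ± 23.98 CPM in females and 62.4 ± 26.9 in males (log2 fold change 0.23 ± 0.13, adjusted p = 0.737, or 0.11 and 0.992 with the pair kept as labelled). Cbln2 stood at 8.85 ± 1.78 and 9.84 ± 2.03 CPM (log2 fold change -0.15 ± 0.10, adjusted p = 0.794).

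Other genes of the same pathways gave no call between genotypes either. Of 13 receptors and partners of C1q-like proteins and cerebellins, 13 were tested and 0 passed over 0 h and 3 h, with a median log2 fold change of -0.04 beside -0.00 over all genes. The 2 with the smallest p were Nrxn2, a presynaptic neurexin, at -0.09 ± 0.04 (adjusted p = 0.353), and Adgrb2, a BAI receptor, at -0.06 ± 0.04 (adjusted p = 0.549). Of 38 other synaptic organizers 0 passed and 2 had an unadjusted p under 0.05, where 12.45% of all genes had one, with a median of -0.00. These were Adgrl2, a latrophilin, at 0.26 ± 0.09 (adjusted p = 0.199), and Clstn1, a calsyntenin, at -0.11 ± 0.04 (adjusted p = 0.273). Of 21 further genes with a C1q domain 16 were tested and 0 passed, with a median of 0.03, and Col8a1 (-1.37 ± 0.75) and Col10a1 (0.48 ± 0.41) had the smallest p (adjusted p = 0.465 and 0.663).

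The same lists gave 0 calls in the comparisons over time. In mutants at 1 h, Nptx2, an activity-regulated pentraxin that gathers AMPA receptors, had the smallest p of the organizers, at 0.37 ± 0.10 (adjusted p = 0.170). At 3 h the BAI receptor gene Adgrb1 stood at 0.19 ± 0.07 in WT mice (adjusted p = 0.538) and 0.14 ± 0.05 in mutants (adjusted p = 0.465).

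Likeness to each of the 8 genes was ranked over the 36 libraries by Pearson r of log2 CPM, among 14576 other genes with a mean of at least 1 CPM. The coefficients are descriptions, since all genes share depth and dissection. The genes most like C1ql2 were D2hgdh (r = 0.89), Skida1 (r = 0.82) and Eya1 (r = 0.80), and the r of deviations from the group means was 0.80, 0.70 and 0.67. D2hgdh and Eya1, like C1ql2, lie on chromosome 1, but not next to it. D2hgdh is at chr1:93823195-93853857 and Eya1 at chr1:14168953-14311035, where C1ql2 starts at 120340582. Eya1 was among the genes that rose in mutants over 0 h and 3 h (log2 fold change 0.41 ± 0.08, adjusted p = 0.0305), while D2hgdh at 0.66 ± 0.18 did not pass (adjusted p = 0.104).

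C1ql3 was most like Ccdc85a (r = 0.87), Sipa1l2 (r = 0.86) and Rfx3 (r = 0.86). C1qtnf4 was most like Tmem198, Med9 and Prr7, with r from 0.72 to 0.75. Cbln1 was most like Grm4 (r = 0.80), Fat2 (r = 0.76) and Car8 (r = 0.75), of which Fat2 is in the list of cerebellar granule cell genes. Cbln2 was most like Tox, Nxph3 and Kctd8, with r from 0.78 to 0.81. Among the genes most like Adgrb3 were the AMPA receptor genes Gria3 (r = 0.79) and Gria2 (r = 0.74). C1ql1 and Cbln4 had no gene above an r of 0.60, with Wscd1 leading for C1ql1 and Cd200 for Cbln4.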

How the data were processed

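The authors aligned paired-end reads of poly-A RNA to mm10 with RNA STAR 2.7.8a and counted reads per gene with featureCounts 2.0.1. The deposited values are raw counts, and the annotation, the strand setting and the handling of multi-mapping reads are not given in the sources used here. Genes were named from RefSeq (25275 of 27179). The first cohort was not analysed here. The members and lists were chosen with earlier results of these data known. Each comparison was fitted on its own libraries by edgeR 4.0.16 (limma 3.58.1, R 4.3.3) with the quasi-likelihood test, robust dispersion, TMM, filterByExpr (minimum count 10) and sex as labelled as a covariate. A gene was called where its p, adjusted by Benjamini-Hochberg, was under 0.05. Levels are TMM-scaled CPM, and log2 CPM used a prior count of 2. The mice are separate animals. Depth was at least 40274435 counts per library. SEs were derived from the log2 fold change and its quasi-likelihood F, with a spread between libraries that is moderated across genes. The 95% intervals run 1.96 SE to each side, so one can leave out 0 where the unadjusted p is above 0.05. Alternatives were RLE factors, no filter, no sex covariate, DESeq2 1.42.0 (the study's tool), all 36 libraries in one fit, a replicate block, leaving out the 2 libraries of discordant sex or each library in turn and, chosen after seeing the data, leaving out the 4 libraries with 25 CPM or more of summed cerebellar granule cell genes. Named genes were the 8 members, Kdm5b, the list members that passed or had the smallest p, the 3 genes most like each member and the nearest tested neighbours of C1ql2. From the lists, values are given for the genotype difference over 0 h and 3 h and for part of the comparisons over time. One gene that this rule names is not reported here.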

Additional observations from a re-analysis of the deposited data

Results flagged for a closer look

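Within groups of 6, the gap from the highest or lowest library to the next was tested against Dixon's limit of 0.625 of the range, in 48 groups (8 genes by 6 groups). Chance gives about 1 such library in 20 groups, and 5 were found. C1ql2 in the library labelled WT 1 h male 1 stood at 64.4 CPM, with the next at 46.0, and this library's sex transcripts go against its label, while its immediate early gene sum and its Kdm5b level lie below those of the other libraries of its group. C1ql3 in WT 3 h female 3 stood at 175.6 CPM, with the next at 134.2. WT 0 h male 2, the library with the fewest counts, held both the Cbln1 value of 12.8 CPM, with the next at 7.59, and the Cbln4 value of 16.6 CPM, with the next at 11.1. Adgrb3 in mutant 0 h male 1 stood at 124.2 CPM, below the next at 138.5.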

How the results depend on the processing

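The comparisons that use the 1 h libraries C1ql2, C1ql3 and C1qtnf4 were chosen on count as descriptions. Of the rest, 0 of the log2 fold changes of the 8 genes printed in the report crossed the threshold in any setting. Among the descriptions, DESeq2 called these 3 genes between genotypes at 1 h and C1ql3 in mutants at 1 h. edgeR called C1ql2 and C1qtnf4 between genotypes at 1 h without the discordant library, with no sex covariate and with the replicate block, and C1ql2 without the granule-high libraries. Some values turned sign. Cbln1 at 1 h went from -0.69 to 0.28 without the granule-high libraries. C1ql3 over 0 h and 3 h, near 0, was -0.0146 there and ran from -0.0036 to 0.0747 with each library left out. At 3 h it was -0.0281 without the granule-high libraries and ran from -0.00752 to 0.145 with each library left out. So left out, the difference in response to 3 h ran from -0.124 to 0.315 for C1ql2 (lowest without WT 0 h male 1) and from -0.0284 to 0.147 for C1ql3 (lowest without WT 0 h female 2). Mean CPM under RLE factors stayed within 1 SD for all 8 genes.

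The count of genes called depended on the setting. DESeq2 called 23 at 0 h, 46 at 3 h, 264 over 0 h and 3 h and 110 at 1 h between genotypes. Over time it called 9 (WT, 1 h), 402 (mutant, 1 h), 51 (WT, 3 h) and 134 (mutant, 3 h). One fit of 36 libraries called 92 over 0 h and 3 h and 1 in WT at 1 h. With no sex covariate 3 genes were called at 1 h. Without the 2 libraries of discordant sex the counts were 41 at 1 h, 18 at 3 h and 53 over 0 h and 3 h between genotypes, 3 in WT at 1 h and 1 in mutants at 3 h. Without the granule-high libraries they were 27 at 1 h, 0 at 3 h and 14 over both times. The replicate block called 5 genes at 1 h and 0 at 3 h, and its fits of C1ql2 and Cbln1 over 0 h and 3 h gave 0.58 and -0.98. The replicate numbers name no shared litter or day, and same-numbered libraries of 1 sex correlated at a median r of 0.04 over 90 pairs, 32 of them above 0.1, so the samples share only a number.

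With each library left out in turn, the counts ran from 0 to 5 at 0 h (5 without mutant 0 h male 1), 0 to 41 at 1 h (41 without WT 1 h male 1), 0 to 18 at 3 h (18 without mutant 3 h female 2) and 12 to 105 over 0 h and 3 h (105 without mutant 0 h male 1, 91 without WT 0 h male 1, 53 without mutant 3 h female 2, 37 without mutant 3 h male 3 or WT 0 h female 2, 36 without WT 3 h female 1, 14 without WT 0 h male 2, 13 without mutant 3 h male 2, 12 without mutant 0 h male 3). Over time they ran from 0 to 3 in WT at 1 h (3 without WT 1 h male 1), 26 to 86 in mutants at 1 h (86 without mutant 0 h female 2, 26 without mutant 0 h male 3), 0 to 8 in WT at 3 h (8 without WT 0 h female 2) and 0 to 10 in mutants at 3 h (10 without mutant 0 h female 2). The cause was not tested.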
